A study of Mus musculus with 18 samples.

Results

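The 42 genes described here encode the structural proteins of the cardiac extracellular matrix, the enzymes that cross-link and degrade it, signals that act on it, and 3 genes of fibroblast identity and cytoskeleton. They were taken by gene symbol from a table of 101256 union peaks, the regions in which RNA polymerase II (Pol II), CTCF or control libraries had a called ChIP-seq peak. Of the 42 genes, 41 carried at least 1 promoter peak, against 13979 gene symbols with a promoter peak in the whole table, and *Loxl2* carried none. A gene was represented by the promoter peak with the highest sum over the 6 Pol II libraries, out of 140 promoter peaks of these genes and 38260 in all.

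Chromatin came from snap-frozen ventricles of adult mice and was immunoprecipitated for Pol II, for CTCF, a zinc finger protein that binds insulator and promoter sites, or with IgG as the background control. The WT hearts were compared with *Trdn-as* KO hearts, in which a polyadenylation site had been placed in exon 1 of the antisense RNA gene *Trdn-as* by Cas9, and with *Mettl3* KO hearts, labelled Mettl3lox/lox:alphaMHC-MerCreMerpos, in which tamoxifen had induced the deletion of the m6A writer *Mettl3*. Each genotype had 2 Pol II, 2 CTCF and 1 IgG library, each library was made from pooled hearts, and the sex of the animals was not considered. The same WT libraries served both knockout lines. For the *Mettl3* line the methods describe tamoxifen-injected floxed mice without Cre as controls, but the labels name the controls of these libraries WT. Whether they were such mice is not given in the sources used here, so the deletion, the Cre, the floxed alleles and tamoxifen cannot be told apart. The alphaMHC promoter drives Cre in cardiomyocytes, so the deletion is not directed at the fibroblasts that are known to express most of these genes. The sources do not say whether the 2 libraries of a genotype came from separate hearts, so the p-values below measure only the spread between libraries, which may be technical.

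The matrix of the heart is a network of fibrillar collagens, basement membranes, microfibrils and elastic fibres that surrounds the myocytes and transmits force. Fibroblasts secrete most of it, and activated fibroblasts lay down more of it in fibrosis, with TGF-beta and the matricellular CCN proteins among the signals. Pol II at a promoter peak reflects polymerase that is initiating, paused or leaving the start site, and is not a measure of RNA. In whole ventricles, fewer or more fibroblast nuclei and a different Pol II signal per nucleus cannot be told apart.

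The sequences before 5 start sites are shown because these genes span the range of the results below, from *Col3a1*, *Col1a2* and *Pdgfra*, at which Pol II was higher in *Mettl3* KO hearts, to *Ccn1* and *Timp3*, at which it was not. They are the 250 bases before the annotated start in RefSeq on GRCm38.p6, written 5′ to 3′ on the gene's strand, while the peaks are on mm39 and were not converted. Capitals mark the TATA box TATAAA, the CCAAT box, the GC box GGGCGG and the TEAD sequence GGAATG, each also read on the other strand. The windows lie at chr1:45311288-45311537 (*Col3a1*, plus strand), chr6:4505368-4505617 (*Col1a2*, plus), chr5:75152001-75152250 (*Pdgfra*, plus), chr3:145649986-145650235 (*Ccn1*, minus) and chr10:86300162-86300411 (*Timp3*, plus).
Col3a1: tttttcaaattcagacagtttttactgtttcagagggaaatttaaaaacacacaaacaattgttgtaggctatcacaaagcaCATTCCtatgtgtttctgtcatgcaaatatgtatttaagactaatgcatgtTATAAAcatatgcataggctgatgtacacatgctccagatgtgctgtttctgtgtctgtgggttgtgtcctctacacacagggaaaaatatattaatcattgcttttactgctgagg
Col1a2: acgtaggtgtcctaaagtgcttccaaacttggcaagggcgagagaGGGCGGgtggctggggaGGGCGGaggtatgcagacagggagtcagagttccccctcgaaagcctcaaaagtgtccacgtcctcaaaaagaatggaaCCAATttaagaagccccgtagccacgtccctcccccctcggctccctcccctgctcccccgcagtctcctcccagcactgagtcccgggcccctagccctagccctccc
Pdgfra: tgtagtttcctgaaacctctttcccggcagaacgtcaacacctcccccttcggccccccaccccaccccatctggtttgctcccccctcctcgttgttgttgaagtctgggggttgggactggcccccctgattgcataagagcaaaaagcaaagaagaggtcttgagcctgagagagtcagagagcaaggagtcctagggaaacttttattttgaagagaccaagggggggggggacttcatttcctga
Ccn1: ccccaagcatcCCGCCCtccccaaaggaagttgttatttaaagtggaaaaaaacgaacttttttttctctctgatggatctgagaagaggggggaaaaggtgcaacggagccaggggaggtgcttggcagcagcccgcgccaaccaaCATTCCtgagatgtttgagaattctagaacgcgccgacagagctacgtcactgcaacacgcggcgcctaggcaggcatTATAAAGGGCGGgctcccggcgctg
Timp3: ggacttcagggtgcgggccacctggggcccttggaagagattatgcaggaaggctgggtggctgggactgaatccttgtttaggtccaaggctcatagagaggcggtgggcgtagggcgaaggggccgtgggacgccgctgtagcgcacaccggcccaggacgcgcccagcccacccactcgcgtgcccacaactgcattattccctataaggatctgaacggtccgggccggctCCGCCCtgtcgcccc
Promoter sequences were found for 28 of the 42 genes. In *Ccn1*, TATAAA began 25 bases before the start and a GC box followed it directly, whereas in *Col3a1* the nearest TATAAA was 117 bases away. A TATA box was present before a start of 5 of the 28 genes (17.9%) and of 14.3% of all 27025 genes searched. The GC box was in 17 (60.7%, against 35.4% of all genes), the CCAAT box in 10 (35.7%, against 37.5%), the TEAD sequence in 5 (17.9%, against 14.4%) and the AP-1 sequence TGANTCA in 1, *Col6a1* (3.57%, against 7.82%). The CArG box of SRF was in none (1.62% of all genes). These are counts of letters in this window, and nothing about a factor was read from them. The GC content ran from 35.2% in *Col3a1* to 76.4% in *Col5a1*, with a median of 60.0%.

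The values are normalised read numbers per peak, scaled by the authors with 1 factor per library and rounded, so they have no unit of their own. From the steps between low values, 1 read was worth 0.945 to 1.60 in the WT and *Mettl3* KO Pol II libraries, 1.15 in *Trdn-as* KO library 1 and 2.04 in *Trdn-as* KO library 2. The last library stood apart, with an estimated 1987889 reads in peaks, 18.6% of its uniquely mapped reads as the study's reporting gives them, against 35.5% to 42.5% and 3208369 to 4952844 reads in the other 5. At the start of *Trdn-as* (*D830005E20Rik* in the annotation), Pol II was 530 and 595 for WT, 140 and 100 for *Trdn-as* KO, and 503 and 491 for *Mettl3* KO, with a log2 fold change of -2.24 ± 0.18 (SE, n = 2 against 2) between *Trdn-as* KO and WT with limma's adjusted p = 2.8e-14, in the direction of the label. The *Mettl3* promoter peak lies outside a check of the deletion and was not used for one.

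The promoter peaks of the matrix and fibroblast genes were 196 to 7915 nucleotides long, with a median of 1593 against 1131 for the corresponding peaks of all gene symbols. They covered the annotated start in 35 of 41 genes. In *Col1a2*, *Col4a2*, *Sparc*, *Lum*, *Fbn1* and *Fbln2* they did not, and the centre of the *Sparc* peak lay 4330 nucleotides downstream. *Col4a1* and *Col4a2* share a divergent promoter, and the *Col4a1* peak also covered the start of *Col4a2*, so its signal is of both genes. Per kilobase of peak, mean WT Pol II ran from 44.9 at *Lox* to 214.0 at *Col4a1*, with a median of 92.9. Relative to IgG, each scaled to its mapped reads, the median over the 41 peaks was 12.8-fold in WT and 14.0-fold in *Mettl3* KO, and all 41 peaks were above 2-fold in WT. In *Trdn-as* KO it was 7.58-fold over 38 peaks, since IgG was 0 at the other 3, those of *Col18a1*, *Fbln1* and *Nid1*. With 1 IgG library per genotype, 1 IgG read was worth 2.54 in WT, 6.56 in *Trdn-as* KO and 4.61 in *Mettl3* KO. Low IgG values therefore stand for a few reads, and ratios over them are imprecise.

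In *Mettl3* KO hearts, Pol II was higher than in WT at 15 of the 41 promoter peaks and lower at 0. The 15 genes were the fibrillar collagens *Col1a1*, *Col1a2*, *Col3a1* and *Col5a1*, the microfibrillar collagens *Col6a1* and *Col6a3*, all 6 elastic fibre and cross-linking genes with a peak (*Fbn1*, *Fbln1*, *Fbln2*, *Eln*, *Lox* and *Loxl1*), the gelatinase *Mmp2*, the receptor *Pdgfra* and the fibroblast transcription factor *Tcf21*. The test was limma on log2(value + 1) over the 52655 peaks with enough signal, at an adjusted p of 0.05, and it called 375 peaks (0.712%) higher and 254 (0.482%) lower. Among the 12343 gene symbols with a tested promoter peak it called 182 higher (1.47%). At an unadjusted p under 0.05, 32 of the 41 genes passed, as did 25.5% of all promoter peaks. The median log2 fold change of the 41 genes was 0.74, against 0.26 for the promoter peaks of all gene symbols and 0.08 for all peaks. Of the 41 genes 39 were above 0, as were 10260 of the 12343 promoter peaks. In 37 of the 41 genes both *Mettl3* KO libraries were above both WT libraries, a pattern found in 66.9% of all promoter peaks, and in 1 gene, *Timp3*, both were below (7.47% of all promoter peaks).

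None of the 15 calls remained when either WT library or either *Mettl3* KO library was left out, and without *Trdn-as* KO library 1 or 2, which enter only the estimate of the spread, 30 and 31 genes were called, when 8.65% and 8.84% of all peaks were called too, against 1.19% with all libraries. In the fits without a WT or *Mettl3* KO library almost no peak of any gene was called, so the loss was not particular to these genes. The median over the 41 genes stayed between 0.58 and 0.76 under every alternative, with 38 or 39 genes above 0. Equal totals for the libraries moved the median of all peaks from 0.08 to -0.08 and that of the 41 genes from 0.74 to 0.58. That of all promoter peaks moved from 0.26 to 0.11. Equal totals divide each library by 1 factor and move all fold changes by nearly the same amount. The gap of 0.66 between the genes and all peaks therefore could not change and was not tested by it. With that scaling the calls among all peaks were 829 higher and 1408 lower, against 375 and 254, and those among the 41 genes were 20 higher and 1 lower, *Ccn1*.

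**Figure D1:**
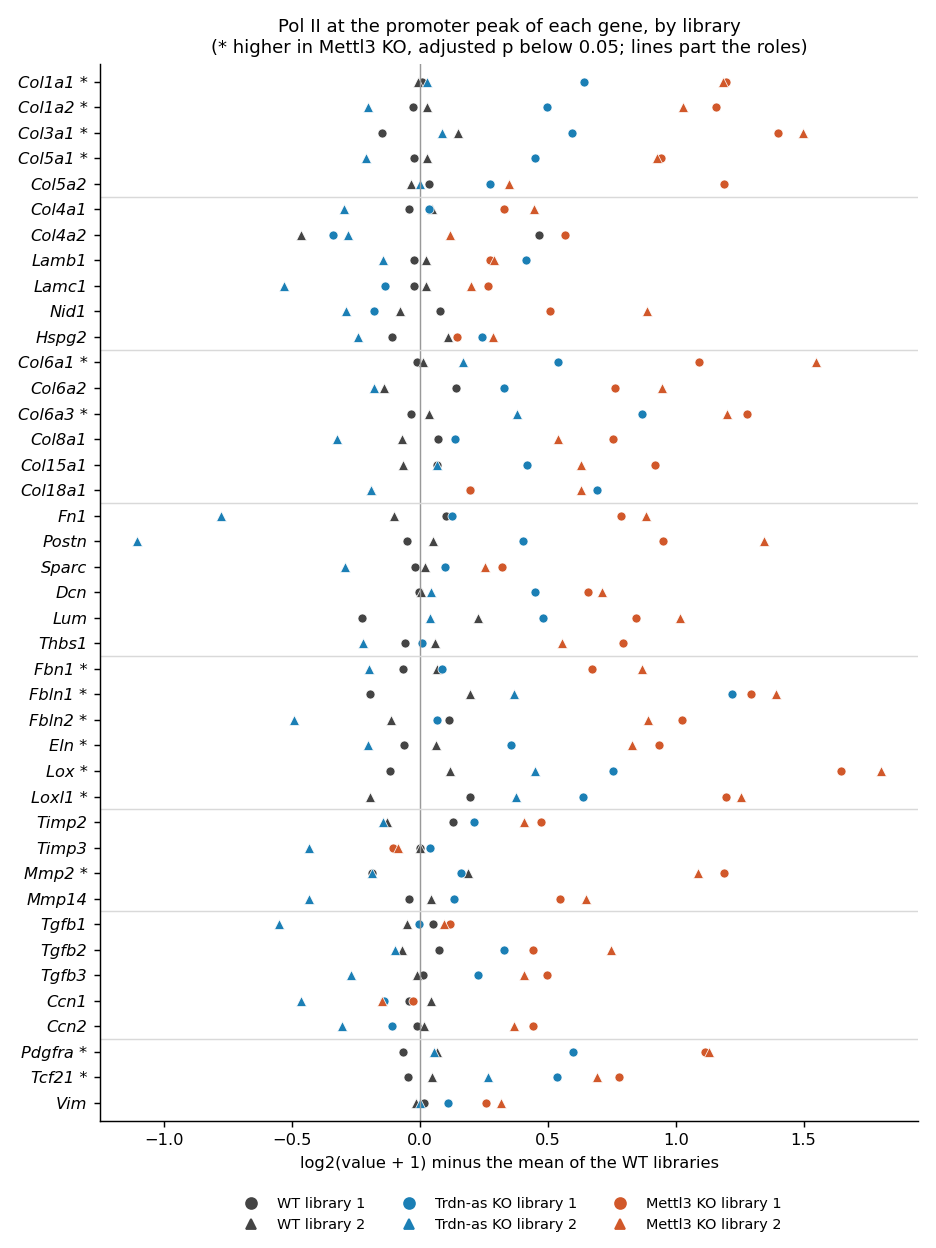
Pol II at the promoter peak of each of the 41 genes, as log2(value + 1) minus the mean of the 2 WT libraries, with 1 symbol per library and grey lines between the groups of genes by role. The orange *Mettl3* KO symbols lie to the right of both WT symbols in 37 genes, and the 15 genes with an asterisk passed the adjusted p of 0.05.

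Fibrillar collagens are the tensile fibres of the matrix. At *Col3a1*, which encodes the type III collagen chain, Pol II was 78 and 96 for WT, 131 and 92 for *Trdn-as* KO, and 230 and 246 for *Mettl3* KO at chr1:45350257-45351263. Both *Mettl3* KO libraries were above the other 4, and the *Trdn-as* KO libraries overlapped WT. The log2 fold change of *Mettl3* KO against WT was 1.45 ± 0.23 (SE; limma, adjusted p = 0.00011), and in estimated reads the peak held 57.4 to 190.0 in the WT and *Mettl3* KO libraries. At *Col1a1*, a chain of type I collagen, the values were 163 and 161 for WT, 253 and 165 for *Trdn-as* KO, and 373 and 370 for *Mettl3* KO at chr11:94826739-94828869. The 2 *Mettl3* KO values differed by less than the 2 *Trdn-as* KO values did, and the fold change against WT was 1.19 ± 0.20 (limma, adjusted p = 0.00019). At *Col1a2*, its partner chain on another chromosome, Pol II was 147 and 153 for WT, 212 and 130 for *Trdn-as* KO, and 336 and 307 for *Mettl3* KO, a change of 1.09 ± 0.21 (limma, adjusted p = 0.0016). *Col5a1*, a type V chain that limits fibril width, had 165 and 171 for WT, 230 and 145 for *Trdn-as* KO, and 324 and 320 for *Mettl3* KO (0.93 ± 0.21, limma adjusted p = 0.0076). In *Col1a2* and *Col5a1* the *Trdn-as* KO libraries lay on either side of WT, library 1 above and library 2 below. *Col5a2*, which lies 24615 nucleotides from *Col3a1* on the other strand, had 127 and 121 for WT and 284 and 158 for *Mettl3* KO, and its change of 0.77 ± 0.23 missed the threshold (limma, adjusted p = 0.077). The 5 fibrillar genes had a median of 1.09.

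Among the other collagens, 2 of 6 were called. Type VI collagen forms beaded microfibrils around cells. At *Col6a1*, Pol II was 59 and 60 for WT, 87 and 67 for *Trdn-as* KO, and 128 and 176 for *Mettl3* KO, and at *Col6a3* it was 38 and 40, 72 and 51, and 96 and 91. In both genes the *Trdn-as* KO libraries were above WT and below *Mettl3* KO. The changes of *Mettl3* KO against WT were 1.32 ± 0.26 (limma, adjusted p = 0.0025) for *Col6a1* and 1.24 ± 0.30 (adjusted p = 0.017) for *Col6a3*. *Col6a2*, which lies 85162 nucleotides from *Col6a1*, had 94 and 77 for WT and 145 and 165 for *Mettl3* KO (0.85 ± 0.25, limma adjusted p = 0.065). The network and multiplexin collagens *Col8a1*, *Col15a1* and *Col18a1* had changes of 0.65, 0.77 and 0.41, none past the threshold. The *Col18a1* peak was the shortest, and its values of 16 and 12 for WT and 16 and 22 for *Mettl3* KO overlapped.

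Elastic fibres consist of elastin laid on fibrillin microfibrils, and lysyl oxidases cross-link both elastin and collagen. *Lox* had the largest fold change of the 41 genes, with Pol II of 22 and 26 for WT, 41 and 33 for *Trdn-as* KO, and 77 and 86 for *Mettl3* KO, or 16.2 to 63.6 estimated reads. Its peak was the nearest to IgG in WT, with Pol II 2.68-fold above IgG in WT, 1.98-fold in *Trdn-as* KO and 8.04-fold in *Mettl3* KO after scaling to mapped reads. The deposited IgG values there, 33 for WT and 39 for *Trdn-as* KO, were above the Pol II means of those genotypes, and that for *Mettl3* KO was 28. Each of these IgG values stands for a small number of reads. The 3 genotypes did not overlap, and the change of *Mettl3* KO against WT was 1.72 ± 0.33 (limma, adjusted p = 0.0017). Its paralogue *Loxl1* had 83 and 63 for WT, 113 and 94 for *Trdn-as* KO, and 167 and 174 for *Mettl3* KO (1.23 ± 0.25, limma adjusted p = 0.0026). The fibulins link microfibrils to other matrix proteins. At *Fbln1*, Pol II was 41 and 54 for WT, 111 and 61 for *Trdn-as* KO, and 117 and 125 for *Mettl3* KO (1.34 ± 0.28, limma adjusted p = 0.0046). At *Fbln2* it was 121 and 103 for WT, 117 and 79 for *Trdn-as* KO, and 228 and 208 for *Mettl3* KO (0.96 ± 0.23, adjusted p = 0.021). In *Fbln1* the *Trdn-as* KO libraries were both above WT and both below *Mettl3* KO, whereas in *Fbln2* they overlapped WT. *Eln*, which encodes elastin, had 117 and 128 for WT, 157 and 106 for *Trdn-as* KO, and 235 and 218 for *Mettl3* KO (0.88 ± 0.22, limma adjusted p = 0.028). *Fbn1*, which encodes fibrillin, had 276 and 303 for WT, 307 and 252 for *Trdn-as* KO, and 461 and 528 for *Mettl3* KO (0.77 ± 0.18, limma adjusted p = 0.012). The *Mettl3* KO libraries of *Eln* and *Fbn1* were above the other 4, and the median over the 6 genes was 1.09.

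Basement membranes are the thin sheets of type IV collagen and laminin beneath endothelium and around myocytes. None of the 6 genes passed the threshold, their median was 0.31, and 2 passed at an unadjusted p under 0.05, where 25.5% of all promoter peaks did. At *Col4a1*, Pol II was 618 and 658 for WT, 654 and 519 for *Trdn-as* KO, and 801 and 869 for *Mettl3* KO (0.39 ± 0.15, limma adjusted p = 0.18). Its *Mettl3* KO libraries were above the other 4. The laminin chains *Lamb1* and *Lamc1*, the linker *Nid1* and the proteoglycan *Hspg2*, perlecan, had changes of 0.28, 0.23, 0.70 and 0.21. *Col4a2*, measured at a peak upstream of its start, had 41 and 21 for WT and 44 and 32 for *Mettl3* KO, which overlapped.

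Matrix glycoproteins and proteoglycans had a median of 0.76 with 0 of 6 genes past the threshold and 5 at an unadjusted p under 0.05 (25.5% of all promoter peaks). At *Fn1*, fibronectin, Pol II was 113 and 98 for WT, 115 and 61 for *Trdn-as* KO, and 182 and 195 for *Mettl3* KO (0.83 ± 0.25, limma adjusted p = 0.074). At *Postn*, periostin, a gene known from activated fibroblasts, it was 26 and 28, 36 and 12, and 53 and 70 (1.15 ± 0.39, adjusted p = 0.13). In both genes the lowest library was *Trdn-as* KO library 2, which at *Postn* held an estimated 5.88 reads. The small leucine-rich proteoglycans *Dcn*, decorin, and *Lum*, lumican, are neighbours 46985 nucleotides apart. *Dcn* had 142 and 143 for WT, 195 and 147 for *Trdn-as* KO, and 225 and 234 for *Mettl3* KO (0.68 ± 0.21, limma adjusted p = 0.089), and *Lum* had 29 and 40, 48 and 35, and 62 and 70 (0.93 ± 0.33, adjusted p = 0.14). Both *Mettl3* KO libraries were the highest in both genes. *Sparc*, a collagen-binding protein, had 532 and 546 for WT and 673 and 643 for *Mettl3* KO (0.29 ± 0.15, limma adjusted p = 0.36), and *Thbs1*, thrombospondin 1, 82 and 89 and 149 and 126 (0.68 ± 0.25, adjusted p = 0.17).

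Among the matrix turnover genes, *Mmp2* rose. Its Pol II was 39 and 51 for WT, 50 and 39 for *Trdn-as* KO, and 103 and 96 for *Mettl3* KO (1.14 ± 0.30, limma adjusted p = 0.038), with both knockout groups apart from each other and *Trdn-as* KO within the range of WT. *Mmp14*, the membrane-bound activator of *Mmp2*, had 163 and 173 for WT, 184 and 124 for *Trdn-as* KO, and 246 and 264 for *Mettl3* KO (0.60 ± 0.21, limma adjusted p = 0.15). The inhibitors *Timp2* and *Timp3* had changes of 0.44 and -0.10. At *Timp3*, WT had 513 and 512, *Trdn-as* KO 527 and 379, and *Mettl3* KO 476 and 483, so that *Mettl3* KO was below WT by less than the difference between the *Trdn-as* KO libraries.

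No signalling gene passed the threshold in the main analysis, and the median of the 5 was 0.41. Of 15 alternatives, *Tgfb2* passed it in 5 and *Tgfb3* and *Ccn2* in 3 each, all as higher, and *Ccn1* in 1, as lower. For *Tgfb2*, *Tgfb3* and *Ccn2*, 2 of these passes came from leaving out a *Trdn-as* KO library. In those fits many more of all peaks were called too, so they are no separate support. Pol II at *Tgfb1* was 523 and 487 for WT, 503 and 344 for *Trdn-as* KO, and 548 and 538 for *Mettl3* KO, and its change of 0.11 ± 0.16 (limma, adjusted p = 0.80) turned to -0.05 with equal library totals and to -0.04 with mapped reads as library sizes. *Tgfb2* had 188 and 170 for WT and 243 and 301 for *Mettl3* KO (0.59 ± 0.20, limma adjusted p = 0.13), and *Tgfb3* 225 and 221 and 315 and 296 (0.45 ± 0.19, adjusted p = 0.24). The *Mettl3* KO libraries of the 3 ligand genes were above WT, and at *Tgfb1* the gap between the groups was smaller than that between the 2 WT libraries. *Ccn1* had the longest peak, 7915 nucleotides, with 1275 and 1353 for WT, 1191 and 951 for *Trdn-as* KO, and 1289 and 1183 for *Mettl3* KO (-0.09 ± 0.13, limma adjusted p = 0.78). With equal library totals *Ccn1* was called lower in *Mettl3* KO (-0.25, limma adjusted p = 0.0040, over all alternatives 0.0040 to 1.0). *Ccn2*, connective tissue growth factor, had 411 and 419 for WT, 384 and 336 for *Trdn-as* KO, and 564 and 536 for *Mettl3* KO (0.41 ± 0.16, limma adjusted p = 0.21). The order at *Ccn2* was *Trdn-as* KO, WT, *Mettl3* KO without overlap, and at *Ccn1* the *Mettl3* KO libraries overlapped WT.

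*Pdgfra*, the PDGF receptor used to identify cardiac fibroblasts, had 112 and 123 for WT, 178 and 122 for *Trdn-as* KO, and 255 and 258 for *Mettl3* KO at chr5:75311279-75313292 (1.12 ± 0.22, limma adjusted p = 0.0018). *Tcf21*, a transcription factor of resident fibroblasts, had 231 and 247 for WT, 347 and 287 for *Trdn-as* KO, and 410 and 387 for *Mettl3* KO at chr10:22695211-22696804 (0.74 ± 0.18, limma adjusted p = 0.021). The *Mettl3* KO libraries of both genes were above the other 4, and both *Trdn-as* KO libraries of *Tcf21* were above WT. *Vim*, the intermediate filament vimentin, which many non-myocytes express, had 776 and 759 for WT and 919 and 956 for *Mettl3* KO (0.29 ± 0.14, limma adjusted p = 0.29).

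The size of the change followed the WT level of the peak. Among the 41 genes, the log2 fold change of *Mettl3* KO against WT had r = -0.68 and rho = -0.69 with the log2 WT value of the peak, r = -0.61 and rho = -0.62 with the WT value per kilobase, and r = -0.68 and rho = -0.64 with the peak length, as a description of genes measured in the same libraries, with WT values in both measures of the WT relations. In the 9 genes with a WT value under 50 the median change was 1.14, with 4 called, and in the 5 genes between 50 and 100 it was 1.23, with 3 called. The 13 genes between 100 and 200 had a median of 0.83 and 6 calls, the 7 genes between 200 and 500 had 0.44 and 2 calls, and the 7 genes of 500 or more had 0.21 and 0 calls. Over all gene symbols the shares called higher in the same 5 ranges were 2.16%, 3.05%, 1.61%, 0.769% and 0.743%, so calls were also rarer at high levels there. The medians of all gene symbols in these ranges were 0.15, 0.25, 0.28, 0.28 and 0.23, so that the genes of 500 or more lay near the median of all promoter peaks of that level. In the ranking of all promoter peaks by log2 fold change, 27 of the 41 genes were in the highest 10% and 5 were below the median.

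**Figure D2:**
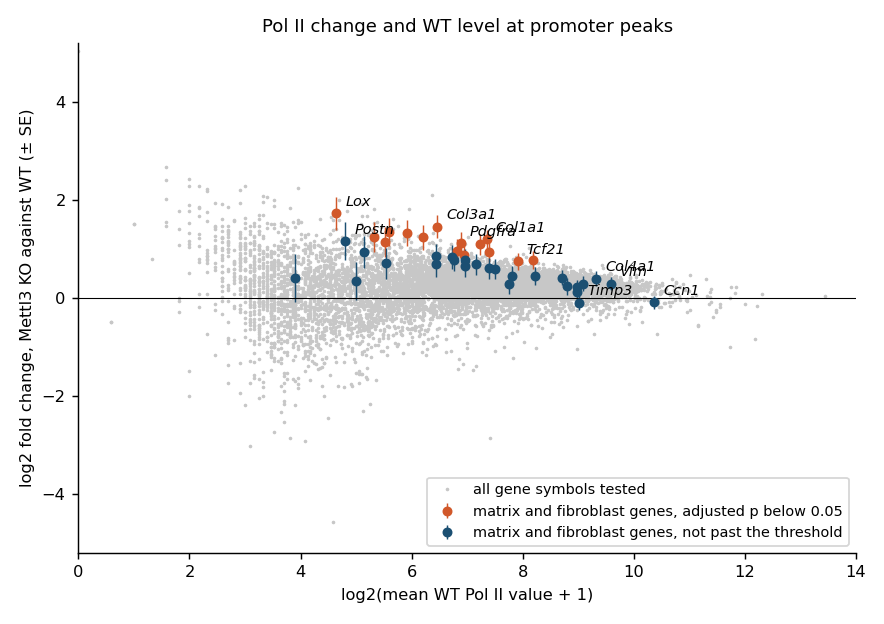
Log2 fold change of Pol II in *Mettl3* KO against WT, with its SE, over log2(mean WT value + 1) of the promoter peak, for 12343 gene symbols (grey) and the 41 genes (orange where called, blue where not). The orange points sit at low and middle WT values, and the genes at the right end, *Vim*, *Col4a1* and *Ccn1*, sit among the grey points.

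In *Trdn-as* KO hearts, Pol II at 0 of the 41 promoter peaks passed the threshold in either direction, while the test called 160 of 52655 peaks (0.304%), and 6 of the 41 genes passed at an unadjusted p under 0.05 (4.86% of all promoter peaks). The median log2 fold change was 0.06, against -0.03 for all promoter peaks and -0.07 for all peaks. Of the 41 genes 22 were above 0, as were 5310 of the 12343 promoter peaks. With mapped reads as library sizes the median of the 41 genes was -0.55, with 3 above 0, and that of all peaks was -0.67. Both *Trdn-as* KO libraries were above both WT libraries in 8 genes (11.4% of all promoter peaks) and below in 4 (12.7%). The largest differences without overlap were at *Fbln1* (0.79, limma adjusted p = 0.37), *Col6a3* (0.62, adjusted p = 0.62), *Lox* (0.60, adjusted p = 0.71), *Loxl1* (0.51, adjusted p = 0.63) and *Tcf21* (0.40, adjusted p = 0.58). The 4 genes below were *Lamc1* (-0.33), *Ccn1* (-0.30), *Nid1* (-0.23) and *Ccn2* (-0.21). The 2 *Trdn-as* KO libraries differed as a whole, with medians over the 41 genes of 0.27 in library 1 and -0.20 in library 2 against the WT mean, and 0.13 and -0.19 over all promoter peaks. Without *Trdn-as* KO library 1, 5 of the 41 genes were called lower (3.57% of all peaks), and with equal library totals 1 was called higher and 1 lower (0.749% of all peaks in either direction).

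Set against *Mettl3* KO, *Trdn-as* KO hearts had less Pol II at 14 of 41 genes and more at 0, where the test called 603 of 52655 peaks (1.15%) and 225 of 12343 promoter peaks (1.82%) lower. The median was -0.65, against -0.30 for all promoter peaks and -0.16 for all peaks, and both *Trdn-as* KO libraries were below both *Mettl3* KO libraries in 36 genes, a pattern found in 56.4% of all promoter peaks. With mapped reads as library sizes the median of the 41 genes was -1.09 (-0.62 for all peaks), and with equal totals it was -0.45 (0.04 for all peaks). In the main analysis all 41 fold changes were below 0, as were those of 10496 of the 12343 promoter peaks. The 14 genes were *Col1a1*, *Col1a2*, *Col3a1*, *Col5a1*, *Col6a1*, *Fbn1*, *Fbln2*, *Eln*, *Mmp2*, *Pdgfra*, *Fn1*, *Postn*, *Mmp14* and *Ccn2*. The differences were -1.16 ± 0.25 at *Fn1* (limma, adjusted p = 0.0057), -1.50 ± 0.39 at *Postn* (adjusted p = 0.030), -0.75 ± 0.21 at *Mmp14* (adjusted p = 0.049) and -0.61 ± 0.16 at *Ccn2* (adjusted p = 0.035), genes that had missed the threshold against WT. The lowest p were at *Fbln2* (-1.17 ± 0.23, limma adjusted p = 0.0022), *Col3a1* (-1.11 ± 0.23, adjusted p = 0.0048) and *Fbn1* (-0.82 ± 0.18, adjusted p = 0.0052). These comparisons share libraries, so the calls of 1 are no independent evidence for another. Without *Trdn-as* KO library 1 most of the 41 genes were called lower, and the calls over all peaks rose as well. Without any 1 of the other 5 Pol II libraries no gene was called, and the calls over all peaks fell as well.

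Signal outside the chosen promoter peaks was looked at in 249 peaks inside 29 of the genes and in 99 further promoter peaks of 37 genes. Of the inner peaks, 137 in 23 genes were tested for Pol II, and 4 were higher in *Mettl3* KO than in WT, 1 each in *Col15a1* (1.48), *Loxl1* (1.21), *Col18a1* and *Tgfb2*, and 0 lower, with a median of 0.26. Of such peaks inside all genes, 0.376% were called higher. At the *Col18a1* peak, chr10:76949603-76950017, Pol II was 3 and 7 for WT, 26 and 16 for *Trdn-as* KO, and 27 and 18 for *Mettl3* KO. The WT values there are a few reads, and at this peak and that of *Tgfb2* the WT libraries alone would not have passed the filter on low values, so these 2 calls lean on the filter. Pol II was also summed over the tested inner peaks of each gene, for *Col18a1* and *Tgfb2* with the 2 peaks that lean on the filter. Both *Mettl3* KO sums were above both WT sums in 12 of 23 genes, *Col18a1* and *Tgfb2* included. This held for 23.0% of all 4682 genes with such a sum. The largest such sums were those of *Col4a2*, 684 and 722 for WT and 840 and 815 for *Mettl3* KO, and *Col4a1*, 359 and 347 and 573 and 530. They were lower in 4 genes, *Sparc*, *Fbln2*, *Timp3* and *Hspg2* (24.1% of all genes), and at *Timp3* the sums were 320 and 326 for WT and 261 and 220 for *Mettl3* KO. Of the further promoter peaks, 75 in 30 genes were tested, and 6 were higher in *Mettl3* KO than in WT, 2 of them in *Pdgfra* and 1 each in *Col1a1*, *Col1a2*, *Col3a1* and *Fbln1*, with a median over the 75 of 0.55. Of the further promoter peaks of all genes, 0.387% were called higher. Between the knockouts, 5 inner peaks were lower for *Trdn-as* KO than for *Mettl3* KO, 3 in *Col4a1* and 1 each in *Col15a1* and *Eln* (0.876% of such peaks in all genes), as were 5 further promoter peaks, in *Col1a1*, *Col1a2*, *Dcn*, *Loxl1* and *Pdgfra* (0.631%). The *Col3a1* peak at chr1:45351935-45352473, downstream of the start, had 10 and 36 for WT, 45 and 71 for *Trdn-as* KO, and 81 and 110 for *Mettl3* KO. It was the only peak of these genes higher in *Trdn-as* KO than in WT (1.51, limma adjusted p = 0.035), and it was higher in *Mettl3* KO too (2.24, adjusted p = 0.0001). The 2 WT libraries differed from each other by more than library 2 did from *Trdn-as* KO library 1.

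CTCF was compared at 36 of the 41 promoter peaks, since those of *Col18a1*, *Postn*, *Lum*, *Lox* and *Nid1* had too little signal. Neither knockout had a called difference from WT, where the test called 356 of 60649 peaks (0.587%) for *Trdn-as* KO and 112 (0.185%) for *Mettl3* KO. For *Trdn-as* KO, 5 genes passed at an unadjusted p under 0.05 (8.72% of all promoter peaks) and the median log2 fold change was 0.06 (0.04 over all peaks). For *Mettl3* KO, 10 genes passed at an unadjusted p under 0.05 (13.2% of all promoter peaks), the median was 0.10 (-0.06 over all peaks), and both libraries were above WT in 15 genes (13.8% of all promoter peaks) and below in 7 (29.7% of all promoter peaks). The largest differences were at *Col6a3*, with CTCF of 9 and 6 for WT, 11 and 7 for *Trdn-as* KO, and 15 and 16 for *Mettl3* KO (0.98 ± 0.29, limma adjusted p = 0.13), and at *Mmp2*, with 13 and 16, 18 and 20, and 21 and 28 (0.71 ± 0.20, adjusted p = 0.12). Both are small values, with the *Mettl3* KO libraries the highest. At *Col6a3* both WT values are under the filter on low values. The peak was tested only through the knockout libraries, so its p leans on the filter. At *Col1a1*, CTCF was 206 and 183 for WT, 226 and 227 for *Trdn-as* KO, and 225 and 211 for *Mettl3* KO (0.17 ± 0.08, limma adjusted p = 0.32), so that where Pol II rose by 1.19 the CTCF of the same peak did not pass. At *Ccn1*, CTCF was 285 and 286 for WT and 269 and 286 for *Mettl3* KO, at *Tgfb1* 245 and 246 and 239 and 233, and at *Eln* 175 and 167 and 174 and 179, all with absolute differences of at most 0.06.

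Between the knockouts, 1 gene had a called CTCF difference, with 253 of 60649 peaks (0.417%) called lower in *Trdn-as* KO. CTCF at *Ccn2* was 114 and 103 for WT, 103 and 97 for *Trdn-as* KO, and 138 and 134 for *Mettl3* KO, a difference of -0.44 ± 0.10 between *Trdn-as* KO and *Mettl3* KO (limma, adjusted p = 0.030). The groups of the 2 knockouts did not overlap, but the call was lost without any 1 of the 6 CTCF libraries. Inside the gene *Loxl1*, at chr9:58202895-58203780, CTCF was 15 and 15 for WT, 22 and 19 for *Trdn-as* KO, and 36 and 40 for *Mettl3* KO (1.28, limma adjusted p = 0.009), and Pol II at the same peak was 33 and 29, 47 and 47, and 86 and 62. It also differed between the knockouts, and it was the only CTCF call against WT among the inner and further promoter peaks of these genes. Across the 36 genes, the Pol II and CTCF changes of *Mettl3* KO against WT had r = 0.67 and rho = 0.73, and across 41 genes the log2 WT levels of Pol II and CTCF had r = 0.85 and rho = 0.83. Both describe peaks that share their length and the chromatin of the same genotype.

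**Figure D3:**
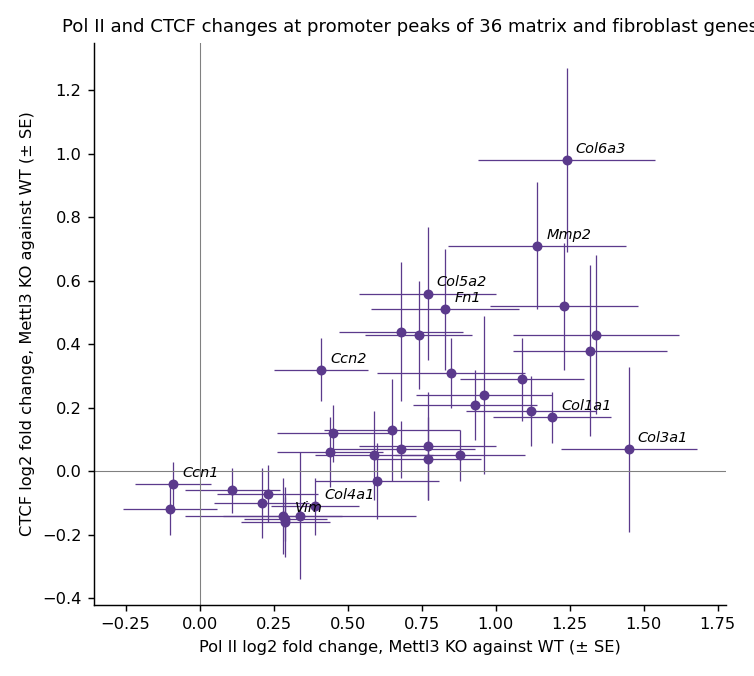
Log2 fold change of CTCF (vertical) over that of Pol II (horizontal) in *Mettl3* KO against WT at the promoter peaks of 36 genes, with SE bars. The Pol II changes of all genes but *Ccn1* and *Timp3* lie between 0.11 and 1.45, while CTCF changes other than those of *Col6a3* and *Mmp2* lie between -0.16 and 0.56.

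Other genes of the same pathways were read from lists chosen by function. Of 18 further fibroblast genes tested, 4 had higher Pol II in *Mettl3* KO than in WT, *Mfap4* (1.77), *Fbln5* (1.20), *Bgn* (1.03) and *Adamts5* (0.78), and the median was 0.74. Over all gene symbols 1.47% were called higher, against which this count and those of the lists that follow are read. Of 15 genes for collagen processing and cross-linking 1 was higher, *Pcolce* (0.79), with a median of 0.29. Of 8 other basement membrane genes 1 was higher, *Lama2* (0.83), with a median of 0.30. None of 19 genes of TGF-beta signalling (median 0.38) or of 11 of the YAP and TEAD pathway (median 0.19) passed, and none of these lists had a gene called lower. Of 9 integrins and matrix receptors 1 was higher, *Itga11*, a collagen receptor of fibroblasts. Its Pol II was 5 and 9 for WT, 32 and 43 for *Trdn-as* KO, and 42 and 32 for *Mettl3* KO. The WT values are a few reads and under the filter on low values, so that *Itga11* was tested only through the knockout libraries, and its call is given as a count with no p.

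Markers of other cell types were summed in the same libraries. The 10 cardiomyocyte markers had a median change of 0.02 in *Mettl3* KO, with 0 called and sums of 33259 and 35443 for WT and 33518 and 33981 for *Mettl3* KO. Of these sums, *Myh6* alone gave 10654 and 11527 for WT and 11283 and 11566 for *Mettl3* KO. The 8 endothelial markers had a median of -0.12, with 0 called and sums of 1761 and 1951 for WT and 1757 and 1690 for *Mettl3* KO. The 10 smooth muscle and pericyte markers had a median of 0.04 with 1 called higher, *Pdgfrb* (0.78), and the 8 macrophage and leukocyte markers a median of 0.10 with 1 called higher, *Spi1* (1.19). Of 2 epicardial markers tested, *Wt1* was lower (-1.02). *Pecam1*, *Csf1r* and *Itgam*, which define endothelium and myeloid cells, had no promoter peak, and the markers of cardiomyocytes, endothelium and macrophages that were tested were above 0 in each Pol II library. The sum over the 41 matrix and fibroblast genes was 9306 and 9443 for WT, 10460 and 7934 for *Trdn-as* KO, and 13003 and 12931 for *Mettl3* KO. As a share of all promoter signal it was 0.322% and 0.325%, 0.331% and 0.314%, and 0.381% and 0.375%. The share of the cardiomyocyte markers was 1.15% and 1.22% for WT and 0.981% and 0.984% for *Mettl3* KO, and that of the endothelial markers 0.0610% and 0.0671%, and 0.0514% and 0.0490%. CTCF at 9 endothelial markers had a median change of -0.40 in *Mettl3* KO, with both libraries below WT in 8 (29.7% of all promoter peaks) and 1 called lower, *Robo4* (-0.81). At the 10 cardiomyocyte markers the CTCF median was 0.02, with 1 called higher, *Myh6*, where CTCF was 299 and 289 for WT and 455 and 480 for *Mettl3* KO (0.67). The alphaMHC promoter of the Cre transgene in *Mettl3* KO hearts is that of *Myh6*. Whether transgene copies add Pol II or CTCF reads at the *Myh6* peak was not tested. The Pol II sums of the 41 matrix and fibroblast genes were highest in the 2 *Mettl3* KO libraries, as were those of the smooth muscle and pericyte markers, 1376 and 1321 against 929 to 1315, and of all promoter peaks, 3416400 and 3452469 against 2530497 to 3163256. Those of the cardiomyocyte, endothelial, macrophage and epicardial markers were not. The part of cell composition in these sums was not tested.

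**Figure D4:**
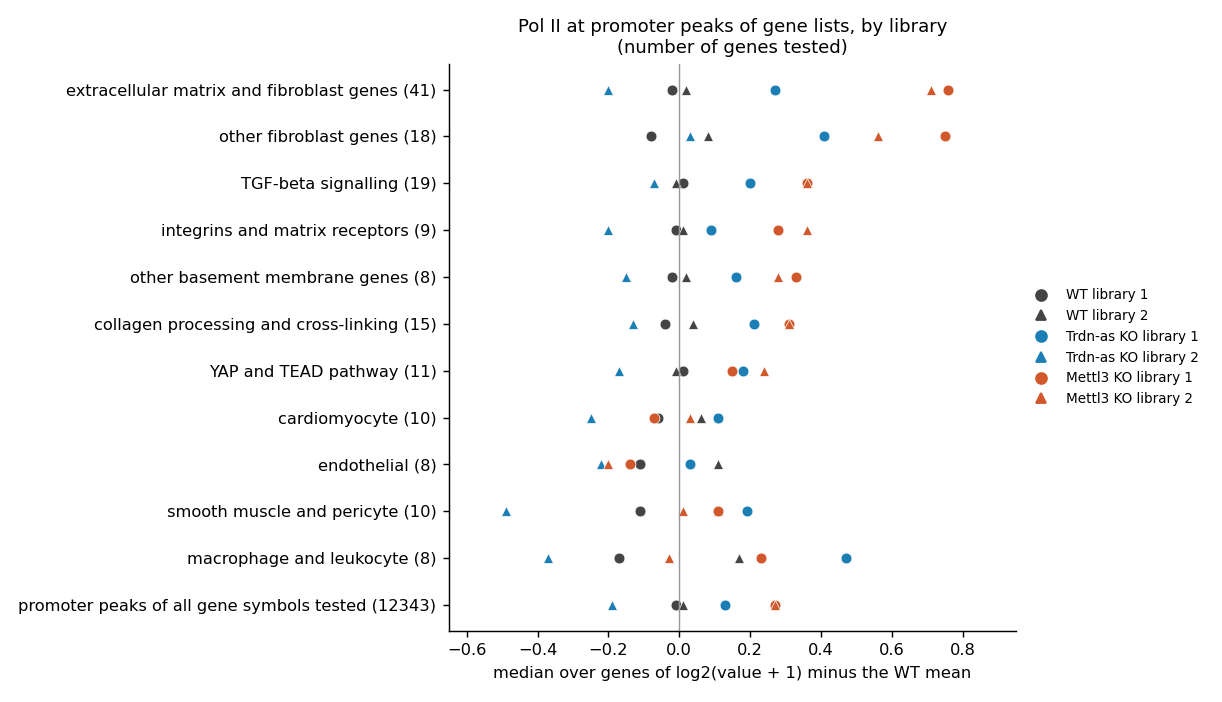
Median over the genes of each list of log2(Pol II + 1) minus the WT mean, with 1 symbol per library and the number of genes tested in brackets. The *Mettl3* KO libraries reach 0.76 and 0.71 for the matrix and fibroblast genes and 0.27 and 0.27 for the promoter peaks of all gene symbols, and the *Trdn-as* KO libraries lie on either side of 0 for most lists.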

How the data were processed

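The study made ChIP-seq libraries of mouse ventricles with 2 Pol II, 2 CTCF and 1 IgG library per genotype. Per the submitters' processing notes and the methods, the authors trimmed reads with Trimmomatic 0.39, aligned them to mm39 with STAR 2.7.11b, removed duplicates with Picard 3.1.1, discarded spliced and multi-mapping reads and those of ribosomal or mitochondrial origin, used MACS to call peaks against input, merged the peaks of all libraries, counted reads with featureCounts and divided them by DESeq2 1.36.0 size factors. The deposited values are therefore a score, normalised counts rounded to whole numbers, and since they are not counts no count test was run. Rounding limits the precision of low values, and counting error is large where a value stands for a few reads. A strong library or a change in overall Pol II moves all size factors and so shifts every fold change.

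Groups were taken from the sample labels. Values were analysed as log2(value + 1) with limma 3.58.1 in R 4.3.3 (variance trend, 3 genotypes in 1 fit per target), in peaks with at least 10 in at least 2 of 6 libraries, with Benjamini-Hochberg adjustment over all tested peaks and a threshold of 0.05. The fold change understates that of low values. With 2 against 2 libraries an exact permutation test cannot go below p = 0.33. Summaries used Python 3.11.15 with numpy 2.4.6 and pandas 2.3.3. The alternatives were 3 other scalings, a pseudocount of 5, no filter, only the 2 genotypes compared, no variance trend, a replicate block, promoter peaks summed per gene, and each library left out.

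The genes, the further gene lists and the tests were chosen with earlier results of these data known. Named were the genes past the threshold, up to 5 per comparison and direction with the largest change without overlap, and a set of well-known members. Promoter sequences are RefSeq's on GRCm38.p6. The 3 input libraries were not used here. No per-sample column was left unused for want of a label (0 columns).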

Additional observations from a re-analysis of the deposited data

Results flagged for a closer look

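At 14 promoter peaks Pol II differed between the knockout lines by the test of that difference itself (limma, *Trdn-as* KO against *Mettl3* KO, n = 2 against 2), and all 14 differences were negative, lower in *Trdn-as* KO. On the log2 scale they were -0.86 at *Col1a1*, -0.95 at *Col1a2*, -1.11 at *Col3a1*, -0.81 at *Col5a1* and -0.97 at *Col6a1* among the collagens. They were -1.16 at *Fn1* and -1.50 at *Postn*, -0.82 at *Fbn1*, -1.17 at *Fbln2* and -0.81 at *Eln*, -1.15 at *Mmp2* and -0.75 at *Mmp14*, and -0.61 at *Ccn2* and -0.80 at *Pdgfra*. CTCF at the *Ccn2* promoter peak differed by -0.44 in the same contrast. The Pol II libraries of *Trdn-as* KO differed between themselves in the share of reads in peaks, 35.5% and 18.6%, and the part of this in the differences was not tested. Groups of 2 libraries are too small for a test of single outlying libraries.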

How the results depend on the processing

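Alternatives are compared by the number of the 41 genes called for Pol II (36 for CTCF). For Pol II in *Mettl3* KO against WT, 15 in the main analysis, the count was 24 with size factors of the Pol II libraries alone (4.5% of all peaks called, against 1.19%). It was 31 with only the 2 genotypes compared (9.23%), 23 with promoter peaks summed per gene (3.98% of genes) and 21 with equal totals (4.41%). It was 0 with mapped reads as library sizes (0.0587%), with no filter (0%) and with no variance trend (0.0038%). Leaving out single libraries gave no gene or most of them, and the calls over all peaks fell or rose alike. For *Trdn-as* KO against *Mettl3* KO, 14 in the main analysis, it was 0 with mapped reads, with no filter, with only the 2 genotypes compared and with no variance trend, and leaving out single libraries gave 0 to 37 (0.0228% to 18.1% of all peaks). For *Trdn-as* KO against WT, 0 in the main analysis, it was 2 with equal totals (0.749% of all peaks). Single libraries left out gave 0 to 5 (0.0361% to 3.62% of all peaks, against 0.304% in the main analysis). For CTCF in *Mettl3* KO against WT, 0 in the main analysis, it was 1 with size factors of the CTCF libraries alone (1.24% of all peaks), 1 with equal totals (1.06%) and 2 with summed promoter peaks (1.14% of genes). The CTCF difference of *Ccn2* between the knockouts was lost (0 genes) with no filter, only the 2 genotypes, no variance trend, the replicate block, summed promoter peaks and each library left out. The cause was not tested. For Pol II in *Mettl3* KO against WT the calls over all peaks fell from 629 to 0 with no filter and 2 with no variance trend. In the CTCF contrast of *Ccn2* they fell from 828 to 73 with no filter and 26 with only the 2 genotypes. They were 244 with no variance trend and 376 with the replicate block. With summed promoter peaks 1.38% of genes were called there, against 1.37% of all peaks in the main analysis. The 39 differences followed at single genes kept their direction in every alternative run, except *Tgfb1* in *Mettl3* KO against WT, -0.05 with equal totals and -0.04 with mapped reads. Replicate numbers share only a number: the deviations of same-numbered Pol II libraries correlated by -0.01 to -0.00 and those of CTCF by -0.24 to 0.01. The replicate block left the Pol II counts at 15, 14 and 0. Mapped reads could not be used for CTCF, since the value of 1 read could not be estimated there. Depth limits *Trdn-as* KO library 2 most, with an estimated 1987889 reads in peaks.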
